A study of Saccharomyces cerevisiae with 18 samples.

Results

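The genes described here are 42 very long protein-coding genes of budding yeast, a list given by identifier and made of open reading frames of about 5 kb or more. They are 42 of the 6837 identifiers in the deposited count table, and they span from 5040 bp (MLP2) to 14733 bp (MDN1). The list does not hold every long gene: 26 other nuclear protein-coding genes of 5 kb or more, TOR1 among them, were in the table and served for comparison, with Ty elements and subtelomeric Y' genes set apart. Polyadenylated RNA was sequenced from Saccharomyces cerevisiae strain BY4742, a haploid of mating type alpha, as wild type (WT), as a strain lacking SET2 (set2Δ) and as a strain lacking BRE1 (bre1Δ). Each strain was grown in rich medium (YPD) and harvested on day 1 or day 4 of chronological aging, that is, of survival without division, with 3 libraries in each of the 6 groups. No strain received any treatment. The series concerns Set2 breakdown by way of Bre1 in this aging. The sources used here do not state whether the 3 replicates were separate cultures, or whether each deletion was 1 clone, so p-values measure only the spread between these libraries.
Set2 is the histone methyltransferase that marks lysine 36 of histone H3 while it travels with elongating RNA polymerase II, and the mark is densest over the bodies of transcribed genes. Bre1 is the ubiquitin ligase that adds ubiquitin to histone H2B, again during elongation. Very long genes keep the polymerase on the template for longer than other genes do. Many of them encode giant scaffolds and enzymes: checkpoint and lipid kinases, subunits of chromatin complexes, fatty acid synthase, lipid transfer proteins, dynein and nuclear pore proteins.
The libraries held 8038470 to 29514490 counts. SET2, summed over 3 libraries, had 1044 counts in WT at day 1, whereas day 1 cells of set2Δ had 20 and day 4 cells 15, and BRE1 had 3472 counts in WT at day 1 against 0 and 2 in bre1Δ. The alpha-cell genes were read in every library, here in CPM, counts scaled to library size. They were MF(ALPHA)1 (36.2 to 1570), MF(ALPHA)2 (22.3 to 47.8), SAG1 (75.9 to 275) and STE3 (37.6 to 53.5). So were the a-cell genes STE2 (10.1 to 44.7), STE6 (23.7 to 56), MFA1 (7.02 to 39.7), BAR1 (4.53 to 14.1) and MFA2 (3.13 to 9.4). The genes of diploid or sporulating cells, IME1 (17.2 to 126), IME2 (20.5 to 38.8) and SPO11 (4.85 to 18.7), were read too. The scaling factors that edgeR's TMM method gave were 0.857 to 0.892 in the WT libraries and 1.03 to 1.14 in both deletions, so values between strains rest on that scaling more than values between days do: with library totals alone the median log2 difference of all genes from WT moved, in day 1 cells, from -0.01 to 0.35 for set2Δ and from 0.02 to 0.32 for bre1Δ. In day 4 cells it moved from -0.10 to 0.16 and from 0.04 to 0.31. All 42 listed genes were among the 6320 genes tested. Outside NUM1, in which 20.7% of the 50-base windows occur more than once within the gene itself, no listed gene shares a 50-base window with another place in the genome. Whether the counting used strand is not given in the sources used here. A count per gene does not tell full-length RNA from RNA that covers part of the gene. In bulk RNA, fewer cells of a type and less RNA per cell cannot be told apart. CPM below are TMM-scaled and compare 1 gene between libraries. FPKM are the authors' values per length and compare genes. Log2 fold changes carry the standard error (SE) of edgeR's quasi-likelihood fit, and "higher" and "lower" mean a Benjamini-Hochberg adjusted p under 0.05 over all 6320 genes.

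From day 1 to day 4 the long genes fell together in WT. Of the 42, 35 were lower, 4 were higher and 3 did not pass the threshold, and the median log2 fold change was -0.72. Over all 6320 genes the median was -0.02, and 40.5% were lower and 37.2% higher. At a change of at least 2-fold, 8 of the 42 were lower and 0 were higher, where 6.22% of all genes were that much lower and 12.6% that much higher.
The same interval gave another result in set2Δ and a partly like one in bre1Δ. In set2Δ, 22 of the 42 were higher, 14 were lower and 6 did not pass, with a median of 0.13 against -0.03 over all genes, of which 34.3% were higher and 37.3% lower. In bre1Δ, 5 were higher, 34 were lower and 3 did not pass, with a median of -0.76 against -0.02 over all genes, of which 37.9% were higher and 38.4% lower. At least a 2-fold fall was seen for 12 of the 42 in bre1Δ (7.85% of all genes) and for 3 in set2Δ (6.27% of all genes). A rise of that size was seen for 1 in bre1Δ (9.92% of all genes) and 0 in set2Δ (7.37%). The split in set2Δ turned with the scaling: 13 were higher and 19 lower with upper-quartile scaling, 15 and 19 with library totals only, and 14 and 19 with limma on FPKM. When a trend on gene length was removed from each library, 9 genes were higher and 26 lower in WT, and 14 were higher and 23 lower in bre1Δ; the medians were then -0.26 and -0.18. The small set2Δ median was 0.02 with library totals only and -0.01 with upper-quartile scaling.
The median changes also followed gene length outside the list, in WT across all classes and in the deletions across part of them. In WT the median log2 fold change was 0.12 for the 2289 tested genes under 1 kb, -0.12 from 1 to 2 kb, -0.23 from 2 to 3 kb, -0.31 from 3 to 4 kb, -0.35 from 4 to 5 kb, and -0.52 for the 26 unlisted genes of 5 kb or more. The listed genes stood at the far end of that order. In set2Δ the order ran the other way, from -0.11 under 1 kb to 0.22 from 3 to 4 kb and 0.31 from 4 to 5 kb, with 0.15 for the 26 unlisted genes. In bre1Δ the classes under 3 kb lay between -0.03 and 0.06, and longer genes stepped down to -0.09, -0.22 and -0.34. The 26 unlisted long genes thus had the sign of the listed ones in all 3 strains, and no test of a difference between them was made. The 38 tested Ty, Y' and mitochondrial genes of 5 kb or more, kept out of these classes, did not follow the set2Δ order. Their medians were -0.47 in WT, -1.17 in set2Δ and -1.615 in bre1Δ.

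**Figure D1:**
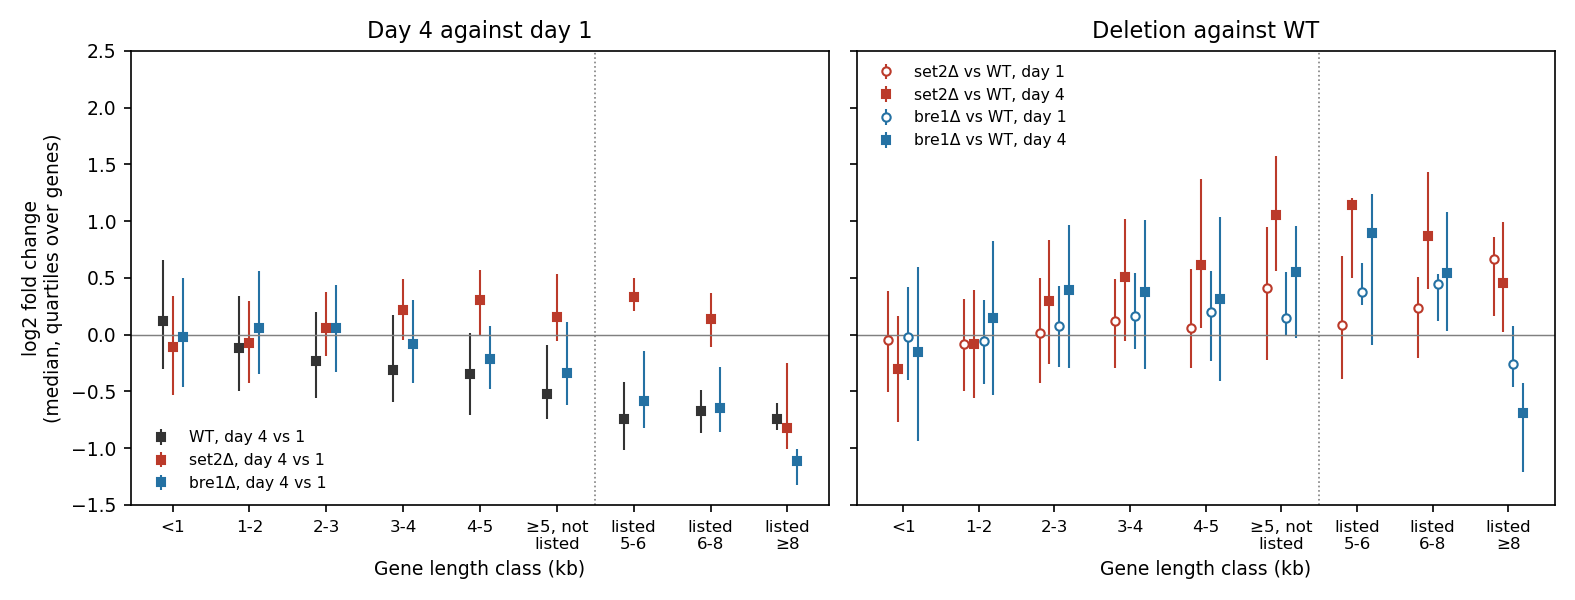
Median log2 fold change (vertical axis) of the tested genes by length class (horizontal axis, kb), for day 4 against day 1 in each strain and for each deletion against WT at each day; vertical lines run from the lower to the upper quartile over genes, and the dotted line sets the listed genes apart. In WT the medians step down from 0.12 under 1 kb to below -0.6 in the listed genes, while in set2Δ they rise to 0.31 at 4 to 5 kb and drop to -0.82 in the listed genes of 8 kb or more.

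Within the list, the day changes also differed by length in the deletions. When the 42 were divided at 6 and 8 kb, a division chosen after the values were seen and therefore given with no test, the 11 genes of 8 kb or more stood apart. These 11 are MDN1, DYN1, TRA1, TOM1, VPS13, IRA1, IRA2, CSF1, TEL1, NUM1 and GCN1, and they are all of the nuclear protein-coding genes of that length among those matched to the reference. In WT the day medians were alike: -0.74 for the 14 genes of 5 to 6 kb, -0.67 for the 17 of 6 to 8 kb and -0.74 for the 11 longest. In set2Δ they were 0.33, 0.14 and -0.82, with 11 of 14, 9 of 17 and 2 of 11 genes higher and 3, 3 and 8 lower. In bre1Δ they were -0.58, -0.64 and -1.11, and 11 of the 11 longest genes were lower. Across the 42 genes, the Spearman correlation of length with the day change was 0.09 in WT, -0.63 in set2Δ and -0.58 in bre1Δ, and over the 31 genes under 8 kb it was 0.11, -0.32 and -0.26. These correlations are across genes, which share libraries and scaling, and are descriptions.

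**Figure D2:**
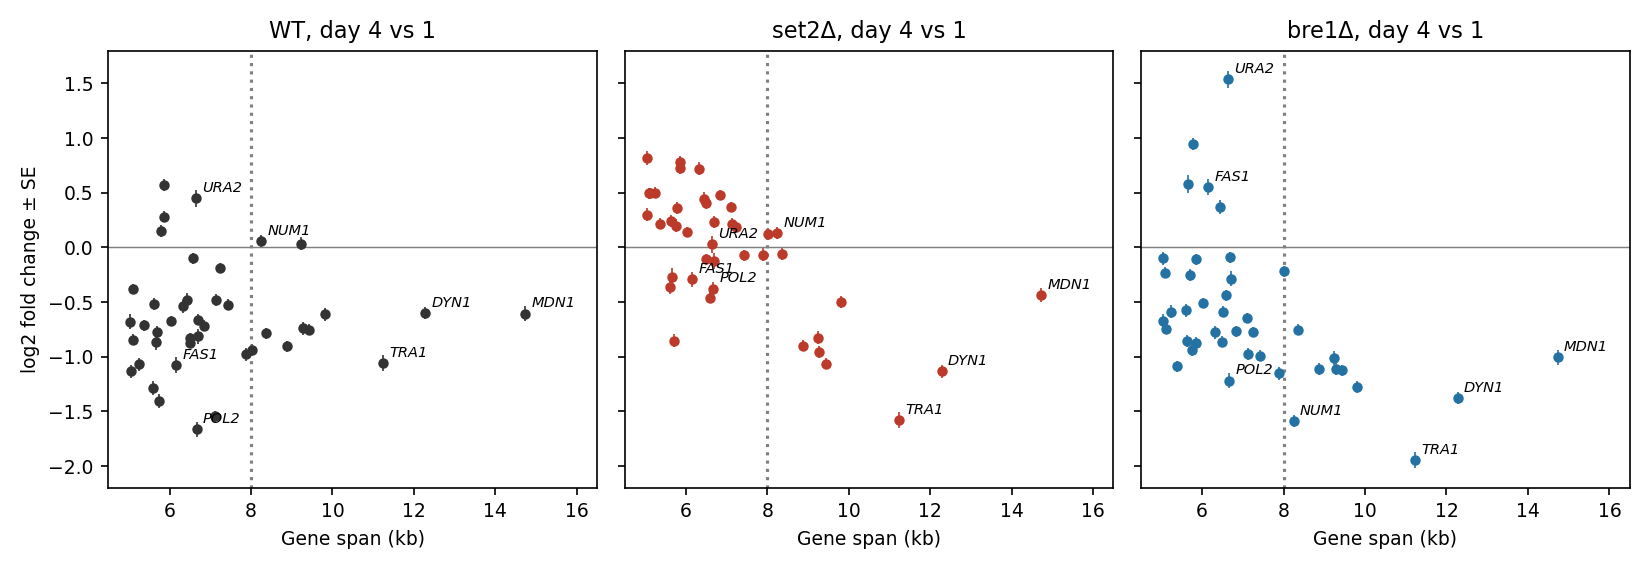
Log2 fold change from day 1 to day 4 (vertical axis) against gene span in kb (horizontal axis) for the 42 listed genes, 1 point per gene with its SE as a bar, in WT, set2Δ and bre1Δ; the dotted line stands at 8 kb. WT shows little slope (Spearman correlation 0.09), whereas in set2Δ and bre1Δ (-0.63 and -0.58) most genes past 8 kb lie low.

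The share of all counts that the long genes took needs no fitted model, but it rests on raw library totals, without TMM scaling. In WT the 11 longest genes held 0.713 to 0.742% of the counts on day 1 and 0.509 to 0.562% on day 4. In set2Δ they held 1.32 to 1.41% and then 0.781 to 0.788%, and in bre1Δ 0.767 to 0.796% and then 0.335 to 0.353%. The days did not overlap in any strain, and in these raw shares every set2Δ library lay above every WT library. TMM scaling did not keep that order. With each gene centred on its mean over all libraries, the median log2 CPM of the 11 was 0.236 to 0.322 in WT at day 1. In set2Δ at day 4 it was 0.0352 to 0.0497. The 14 genes of 5 to 6 kb held 0.271 to 0.278% on day 1 and 0.2 to 0.21% on day 4 in WT, 0.331 to 0.338% and then 0.372 to 0.395% in set2Δ, and 0.4 to 0.413% and then 0.353 to 0.359% in bre1Δ, so that set2Δ alone of these strains had the higher share on day 4. The share of the 17 genes of 6 to 8 kb was lower at day 4 in each strain: 0.452 to 0.474% and then 0.29 to 0.302% in WT, 0.652 to 0.665% and then 0.606 to 0.632% in set2Δ, and 0.667 to 0.708% and then 0.576 to 0.587% in bre1Δ. For that class in set2Δ the share thus moved the other way from the fitted median of 0.14, which counts each gene once. The 42 genes as a whole made up 0.999 to 1.49% of a WT library, 1.76 to 2.41% in set2Δ and 1.27 to 1.89% in bre1Δ. Their summed TMM-scaled CPM overlapped between WT at day 1 (16150 to 17340) and set2Δ at day 4 (17030 to 17240).

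**Figure D3:**
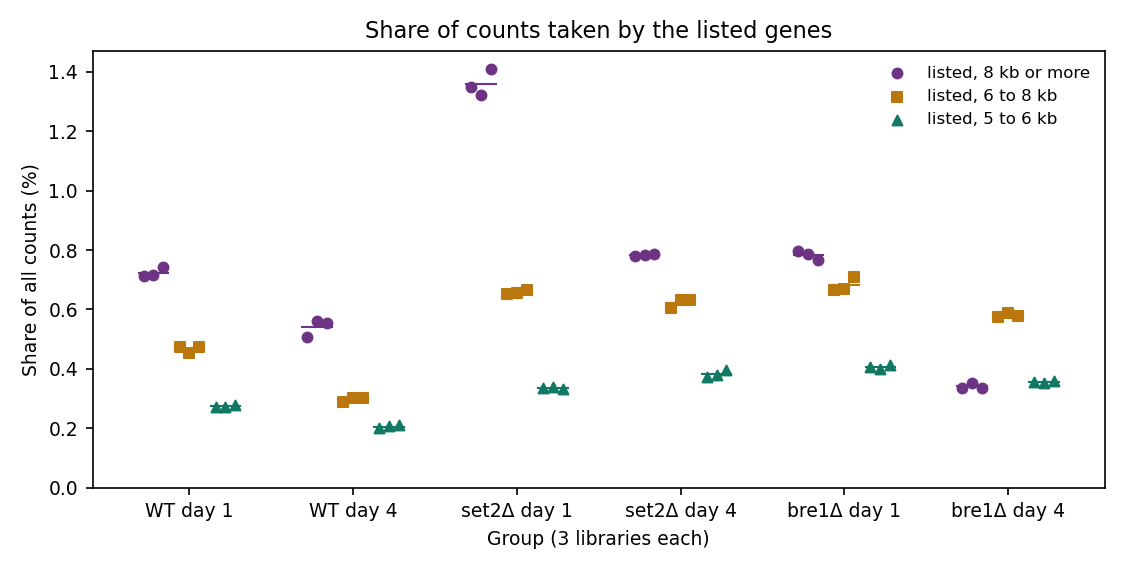
Percentage of all counts in a library (vertical axis) taken by the listed genes of 5 to 6 kb, 6 to 8 kb, and 8 kb or more, in the 6 groups (horizontal axis), 1 point per library and a line at the mean of 3. The longest genes fall from day 1 to day 4 in all 3 strains, and in set2Δ at day 1 they reach 1.32 to 1.41%, above all other groups.

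Against WT, set2Δ had more RNA of most long genes, and for those under 8 kb above all at day 4. The median log2 difference at day 1 and day 4 was 0.08 and 1.14 for the 14 genes of 5 to 6 kb. It was 0.23 and 0.87 for the 17 of 6 to 8 kb. For the 11 longest it was 0.67 at day 1 (9 higher, 1 lower) and 0.45 at day 4 (8 higher, 3 lower). At day 1, 25 of the 42 were higher in set2Δ, 13 were lower and 4 did not pass, with a median log2 difference of 0.29 against -0.01 over all genes, of which 37.9% were higher and 39.5% lower. At 2-fold or more, 3 were higher and 1 lower, against 10.3% and 8.75% of all genes. At day 4, 35 were higher, 4 were lower and 3 did not pass, with a median of 0.93. Over all genes the median was -0.10, and 34.7% were higher and 44% lower. The 26 unlisted genes of 5 kb or more had a median of 1.055 at day 4, with 22 higher and 4 lower. From 4 to 5 kb the median was 0.61, with 85 of 122 higher and 21 lower. A difference of at least 2-fold upward was found for 20 of the 42 at day 4, where 9.75% of all genes were that much higher, and downward for 0, where 12.1% were that much lower. With the length trend removed the day 4 count was 24 higher and 17 lower and the median 0.18, and at day 1 the count was 20 and 17 and the median 0.08. With library totals only, day 1 gave 33 higher and 5 lower, with a median of 0.65.
In bre1Δ, more of the long genes were higher than lower against WT at day 1, and at day 4 the counts in each direction lay nearer to those of all genes. At day 1, 25 of the 42 were higher, 8 were lower and 9 did not pass, with a median of 0.30 against 0.02 over all genes, of which 35.8% were higher and 35.8% lower, and no listed gene differed by 2-fold, where 5.79% of all genes were that much higher and 4.54% that much lower. At day 4, 22 were higher, 16 were lower and 4 did not pass, against 44.8% and 41.6% of all genes, whose median was 0.04, and the median of 0.28 covered a range from -1.76 (IRA2) to 1.79 (NUP192). At 2-fold or more, 11 were higher and 4 lower, against 18.9% and 19.1% of all genes. At both days the longest genes stood on the other side. At day 1, 2 of the 11 were higher and 6 were lower, with a median of -0.26. Of the 14 shortest, 12 were higher and 0 lower at day 1. At day 4, 2 of the 11 were higher and 9 were lower, while 9 of the 14 shortest were higher and 4 were lower. With library totals only, 36 genes were higher and 4 lower at day 1, and 27 higher and 10 lower at day 4, with medians of 0.60 and 0.55. With the length trend removed, day 1 gave 21 and 12, with a median of 0.12. Both deletions were compared with the same WT libraries, and so these counts are not independent of each other.
The day effects themselves differed between the strains. Tested as an interaction, the day effect was higher in set2Δ than in WT for 30 of the 42 genes and lower for 7, with a median of 0.72 against -0.05 over all genes, of which 34.8% and 37.9% passed, 72.7% in all. A difference of at least 2-fold was reached upward by 11 of the 42 (10.2% of all genes) and downward by 0 (15.6%). Among the 11 longest genes the set2Δ day effect was higher for 2 and lower for 5, with a median of 0.002. For the 26 unlisted genes of 5 kb or more the set2Δ day effect was higher for 20 and lower for 3, with a median of 0.63. From 4 to 5 kb the median was 0.58. For bre1Δ against WT the day effect was higher for 18 of the 42 and lower for 19, with a median of -0.04. Over all genes the median was 0.04, and 40% and 36.9% passed, 76.9% in all. At 2-fold, 4 were higher (13.9% of all genes) and 3 lower (16.2%). The parts of the list differed in bre1Δ. The 11 longest had a median of -0.40, with 1 higher and 9 lower. The 17 genes of 6 to 8 kb had a median of 0.16, with 9 higher and 5 lower. The 14 genes of 5 to 6 kb had a median of 0.47, with 8 higher and 5 lower. For the 26 unlisted genes it was 0.27, with 14 higher and 8 lower. With the length trend removed, the set2Δ test gave 24 higher and 14 lower, with a median of 0.24. The small bre1Δ median of the 42 changed sign with upper-quartile scaling (0.04), TMM from genes under 2 kb (0.02) and the length trend removed (0.06).

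**Figure D4:**
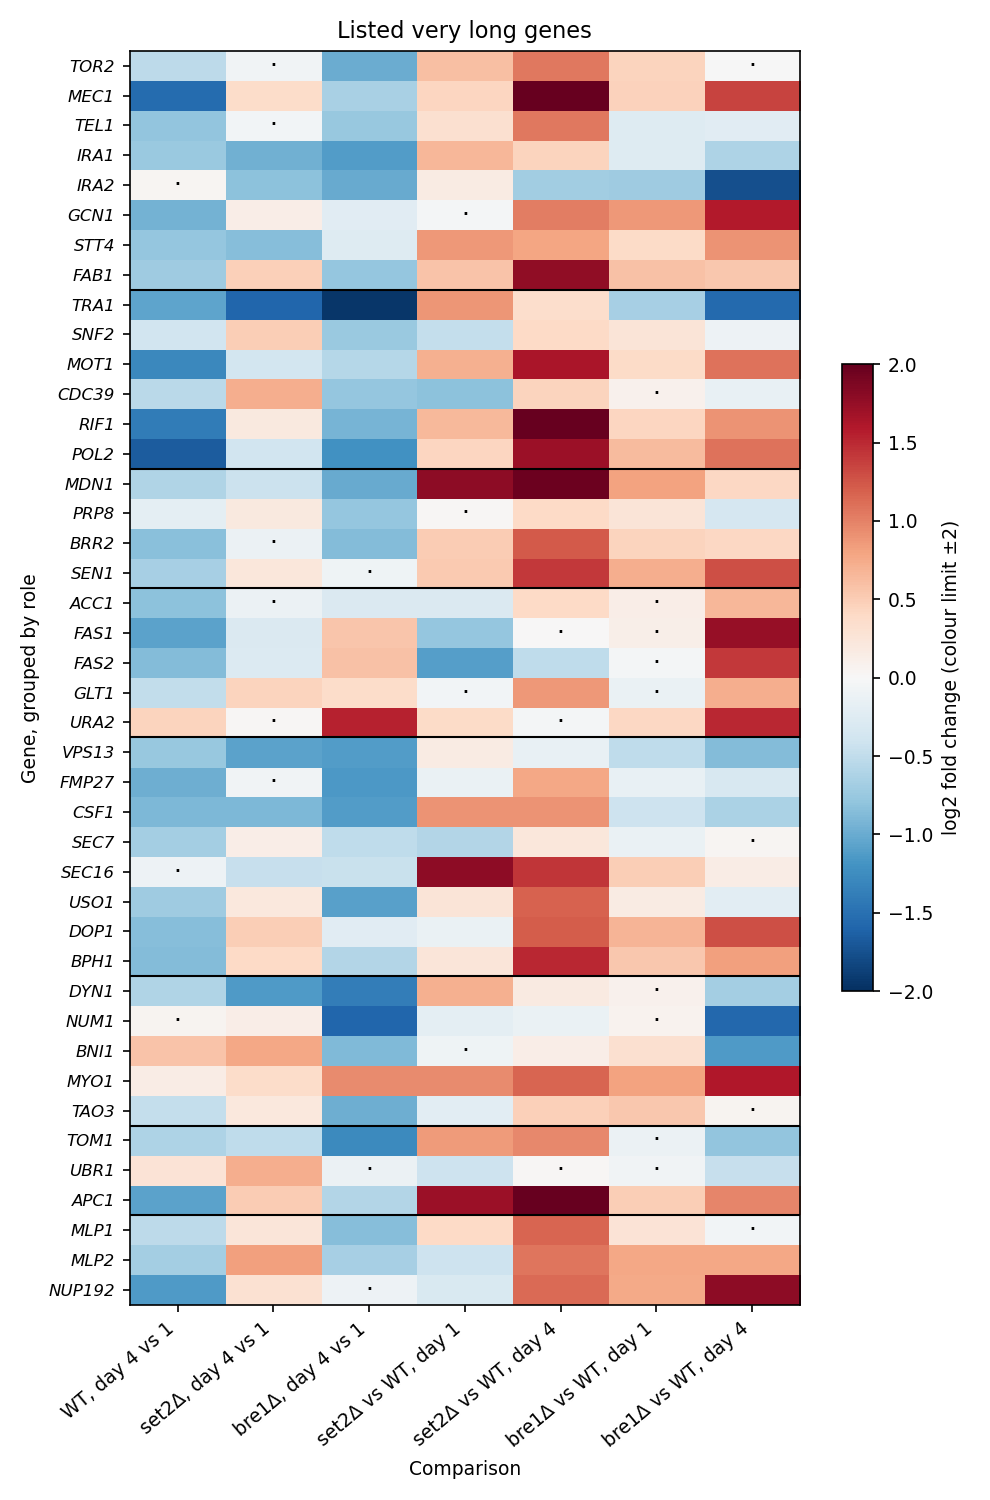
Log2 fold changes of the 42 listed genes (rows, by role) in the 7 pairwise comparisons (columns); the colour scale ends at -2 and 2, beyond which 3 values lie (APC1 at 3.29, MEC1 at 2.34 and RIF1 at 2.25, all set2Δ against WT at day 4), and a dot marks a gene not past the adjusted threshold. The first column is mostly low, and the column of set2Δ against WT at day 4 mostly high.

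Among the signalling kinases and regulators, 7 of 8 were lower in WT at day 4, 3 of 8 in set2Δ and 8 of 8 in bre1Δ. Over all genes 40.5%, 37.3% and 38.4% were lower in these strains, and 37.2%, 34.3% and 37.9% higher. The day counts of role groups and partners below stand beside these shares. The group holds the checkpoint kinases Mec1 and Tel1, relatives of mammalian ATR and ATM; Tor2, the kinase of TOR complex 2; Ira1 and Ira2, which switch Ras off; Gcn1, which relays stalled ribosomes to the kinase Gcn2; and the phosphoinositide kinases Stt4 and Fab1. At day 4, 7 of the 8 were higher in set2Δ than in WT and 1, IRA2, was lower, where 34.7% of all genes were higher and 44% lower. With the length trend removed, the count in bre1Δ was 2 higher and 4 lower.
MEC1 (YBR136W, II:505668-512774, plus strand) had the largest difference in day effect of the list. It read 124, 122 and 128 CPM at day 1 and 39.8, 43.6 and 44.5 CPM at day 4 in WT. The set2Δ values for MEC1 were 164, 164 and 173 CPM at day 1 and 207, 213 and 225 CPM at day 4, and the bre1Δ values were 172, 172 and 168 CPM at day 1 and 111, 110 and 107 CPM at day 4. MEC1 fell in WT and in bre1Δ with no overlap of the days, and rose in set2Δ. The log2 changes were -1.54 ± 0.05 in WT (adjusted p = 1.53e-16), 0.37 ± 0.05 in set2Δ and -0.64 ± 0.05 in bre1Δ. At day 4, MEC1 stood 5.05-fold higher in set2Δ than in WT, and 2.56-fold higher in bre1Δ. TEL1, its long relative, fell by 0.79 in WT and by 0.75 in bre1Δ on the log2 scale (-0.79 ± 0.05 and -0.75 ± 0.05). Without the length trend, neither MEC1 nor TEL1 passed in bre1Δ (-0.03 and -0.02).
IRA2 (YOL081W, XV:171070-180309, plus strand) did not pass the threshold between days in WT, where most of the list fell. The WT libraries of IRA2 gave 1550, 1550 and 1570 CPM at day 1 and 1510, 1660 and 1620 CPM at day 4, and the days overlapped. In set2Δ, IRA2 gave 1720, 1700 and 1810 CPM at day 1 and 958, 994 and 1000 CPM at day 4, and in bre1Δ 968, 976 and 911 CPM at day 1 and 443, 520 and 452 CPM at day 4. Both deletions had lower IRA2 at day 4 than at day 1 in every library, with log2 changes of -0.82 ± 0.06 and -1.01 ± 0.06. At day 4 IRA2 was 3.38-fold lower in bre1Δ than in WT (adjusted p = 2.48e-16), and -0.70 ± 0.06 on the log2 scale in set2Δ. Its paralog IRA1 was lower at day 4 in all 3 strains, by log2 changes of -0.74 ± 0.06, -0.96 ± 0.06 and -1.11 ± 0.06 in WT, set2Δ and bre1Δ.
GCN1 (YGL195W, VII:131525-139543, plus strand) is the shortest of the 11 genes past 8 kb, and it moved like the shorter genes of the list. Its libraries read 223, 221 and 234 CPM at day 1 and 118, 116 and 120 CPM at day 4 in WT. For GCN1, set2Δ gave 221, 215 and 224 CPM at day 1 and 239, 243 and 238 CPM at day 4, and bre1Δ gave 386, 421 and 436 CPM at day 1 and 363, 337 and 367 CPM at day 4. WT fell by 1.92-fold with no overlap. At day 4, GCN1 was 2.04-fold higher in set2Δ and 3.02-fold higher in bre1Δ than in WT. In bre1Δ it already stood above WT at day 1, at means of 414 and 226 CPM. Of the lipid kinases, FAB1, which makes the signalling lipid of the vacuole, fell in WT (-0.72 ± 0.05) and rose in set2Δ (0.48 ± 0.05), whereas STT4, the kinase of the plasma membrane, fell in both (-0.77 ± 0.06 and -0.85 ± 0.06). TOR2 fell in WT (-0.53 ± 0.05; not past the threshold, at -0.04, with the length trend removed) and in bre1Δ (-0.99 ± 0.05).

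The chromatin, transcription and replication genes fell without exception in WT, 6 of 6, and in bre1Δ, 6 of 6, and were divided in set2Δ, 3 higher and 3 lower. At day 4, 6 of 6 were higher in set2Δ than in WT, or 3 higher and 3 lower with the length trend removed. They are POL2, the catalytic subunit of DNA polymerase epsilon; RIF1, which restrains telomerase and late replication origins; MOT1, which removes the TATA-binding protein from DNA; SNF2, the motor of the SWI/SNF remodelling complex; CDC39, the scaffold of the CCR4-NOT complex that shortens poly(A) tails; and TRA1, the subunit through which the SAGA and NuA4 acetyltransferases meet activators.
POL2 and RIF1 had the first and the third largest falls of the list in WT. They are also the only listed genes with the sequence ACGCGT, the Mlu I cell cycle box of genes that are transcribed before replication, between 250 bases before and 50 bases after the start of the gene. That motif, which reads the same on both strands, was looked up after the values had been seen; it is in 3.06% of the 6020 promoters of that window and in 2 of the 42. The stretches from 250 to 101 bases before each start are shown, from the RefSeq genome (R64, the same as sacCer3), 5′ to 3′ on the strand of the gene with the motif in capitals. They lie at XIV:147962-148111 (plus strand) and II:757207-757356 (minus strand).
POL2: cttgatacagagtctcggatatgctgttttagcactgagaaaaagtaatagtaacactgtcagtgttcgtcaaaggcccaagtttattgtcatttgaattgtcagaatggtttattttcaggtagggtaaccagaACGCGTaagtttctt
RIF1: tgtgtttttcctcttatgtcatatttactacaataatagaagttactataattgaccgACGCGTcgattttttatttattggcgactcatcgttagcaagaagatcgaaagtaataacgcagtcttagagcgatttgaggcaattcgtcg
POL2 (YNL262W, XIV:148212-154880, plus strand) read 248, 201 and 242 CPM at day 1 and 70.0, 73.7 and 74.3 CPM at day 4 in WT. In set2Δ, POL2 gave 317, 311 and 299 CPM at day 1 and 227, 235 and 251 CPM at day 4, and in bre1Δ 359, 338 and 377 CPM at day 1 and 154, 157 and 151 CPM at day 4. The day 4 libraries lay below the day 1 libraries in every strain, the WT ones farthest. The log2 changes were -1.66 ± 0.07 in WT (adjusted p = 4.8e-15), -0.38 ± 0.06 in set2Δ and -1.22 ± 0.07 in bre1Δ. The other 3 subunits of the polymerase, DPB2, DPB3 and DPB4, did not pass the threshold in WT, at log2 changes of -0.17 ± 0.11, 0.02 ± 0.13 and -0.06 ± 0.06; with upper-quartile scaling DPB2 (-0.29) and DPB4 (-0.18) passed.
RIF1 (YBR275C, II:751356-757106, minus strand) gave 117, 102 and 117 CPM at day 1 and 40.1, 42.9 and 43.8 CPM at day 4 in WT. RIF1 in set2Δ read 177, 176 and 175 CPM at day 1 and 198, 195 and 212 CPM at day 4, and in bre1Δ it read 142, 151 and 159 CPM at day 1 and 78.6, 74.5 and 82.1 CPM at day 4. RIF1 fell 2.64-fold in WT and by a log2 change of -0.94 ± 0.06 in bre1Δ. At day 4 the set2Δ libraries were 4.77-fold above those of WT (adjusted p = 1.18e-17).
TRA1 (YHR099W, VIII:302761-313995, plus strand), at 11235 bp, had the largest fall of the list in both deletions. WT libraries held TRA1 at 923, 923 and 1120 CPM at day 1 and 435, 498 and 495 CPM at day 4. Its values in set2Δ were 1840, 1690 and 1910 CPM at day 1 and 614, 612 and 596 CPM at day 4, and in bre1Δ they were 633, 638 and 607 CPM at day 1 and 160, 166 and 163 CPM at day 4. TRA1 was lower at day 4 in every library of each strain, with log2 changes of -1.06 ± 0.07 in WT, -1.58 ± 0.07 in set2Δ and -1.94 ± 0.07 in bre1Δ (adjusted p = 4.68e-15). TRA1 in set2Δ was 1.84-fold higher than in WT at day 1 and 1.28-fold higher at day 4, which turned to a log2 difference of -0.47 with the length trend removed, and in bre1Δ it was 2.92-fold lower at day 4. Of the 14 other SAGA and NuA4 genes on the list of partners, 6 were higher and 7 lower in WT at day 4, and 8 higher and 6 lower in bre1Δ.
CDC39 (YCR093W, III:280117-286443, plus strand) read 336, 311 and 339 CPM at day 1 and 210, 232 and 236 CPM at day 4 in WT. For CDC39 the set2Δ libraries gave 185, 179 and 196 CPM at day 1 and 291, 323 and 307 CPM at day 4 and the bre1Δ libraries 375, 337 and 334 CPM at day 1 and 203, 200 and 207 CPM at day 4. The day change was -0.54 ± 0.06 in WT, -0.78 ± 0.06 in bre1Δ and, with the opposite sign, 0.72 ± 0.06 in set2Δ, which began lower than WT at day 1. The WT change was -0.11 and did not pass with the length trend removed. SNF2 did likewise, at 0.50 ± 0.05 in set2Δ and -0.74 ± 0.05 in bre1Δ. MOT1 fell in WT by 2.44-fold.

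All 4 genes of RNA processing and ribosome assembly were lower in WT at day 4, and all 4 were higher in set2Δ than in WT at that day. Without the length trend the WT count was 2 higher and 2 lower. MDN1 (YLR106C, XII:349006-363738, minus strand), the longest gene of the list, encodes the ATPase that pulls assembly factors off the maturing large ribosomal subunit. WT libraries gave MDN1 at 412, 370 and 454 CPM at day 1 and 258, 285 and 267 CPM at day 4. The counts of MDN1 in set2Δ came to 1450, 1350 and 1460 CPM at day 1 and 1030, 1050 and 1070 CPM at day 4, and those in bre1Δ to 688, 725 and 747 CPM at day 1 and 349, 374 and 353 CPM at day 4. It fell in all 3 strains with no overlap of the days, by log2 changes of -0.61 ± 0.07 in WT, -0.43 ± 0.07 in set2Δ and -1.005 ± 0.07 in bre1Δ. Its sign depends on the length trend: with that trend removed the change was 0.14 in WT and 0.15 in bre1Δ. At both days set2Δ held far more MDN1 than WT, 3.44-fold at day 1 and 3.88-fold at day 4. RIX1, a partner of Mdn1 in that step, was higher as well in set2Δ at day 4, at a log2 difference of 2.75 ± 0.09. Of the 7 partner genes of this step, 3 were higher and 3 lower in that comparison. At day 1, 6 of the 7 were higher in set2Δ than in WT and 0 lower (37.9% and 39.5% of all genes). In bre1Δ 7 of 7 were higher than in WT at day 1 and at day 4 (35.8% and 44.8% of all genes). From day 1 to day 4 in bre1Δ, where MDN1 fell, 7 of 7 were higher.
The other 3 genes serve splicing and transcription termination. SEN1, the helicase that ends transcription of short non-coding RNAs, was 2.46-fold higher in bre1Δ and 2.66-fold higher in set2Δ than in WT at day 4. BRR2, the helicase that unwinds the U4 and U6 snRNAs, fell in WT (-0.83 ± 0.05) and in bre1Δ (-0.86 ± 0.05). PRP8, the core protein of the spliceosome, fell in bre1Δ (-0.78 ± 0.04).

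Most of the metabolic enzymes rose in bre1Δ, where most of the list fell. Of the 5, 4 were lower in WT from day 1 to day 4, while 4 were higher in bre1Δ. At day 4 all 5 were higher in bre1Δ than in WT, where 44.8% of all genes were. They are Acc1, acetyl-CoA carboxylase, which makes malonyl-CoA; Fas1 and Fas2, the subunits of fatty acid synthase; Glt1, glutamate synthase; and Ura2, which carries out the first steps of pyrimidine synthesis.
FAS1 (YKL182W, XI:100671-106826, plus strand) read 744, 740 and 711 CPM at day 1 and 338, 356 and 346 CPM at day 4 in WT. In set2Δ, FAS1 read 435, 416 and 435 CPM at day 1 and 350, 350 and 351 CPM at day 4, and in bre1Δ 684, 780 and 914 CPM at day 1 and 1140, 1190 and 1170 CPM at day 4. FAS1 fell in every WT library and rose in every bre1Δ library, with log2 changes of -1.08 ± 0.07 (adjusted p = 1.46e-11) and 0.55 ± 0.07 (adjusted p = 3.94e-07). At day 4 bre1Δ stood 3.36-fold above WT, and the set2Δ and WT libraries overlapped.
FAS2 (YPL231W, XVI:108652-114315, plus strand) followed its partner. Its WT libraries read 797, 803 and 837 CPM at day 1 and 462, 452 and 427 CPM at day 4. For FAS2, set2Δ gave 396, 369 and 366 CPM at day 1 and 332, 311 and 298 CPM at day 4, and bre1Δ gave 667, 837 and 878 CPM at day 1 and 1230, 1090 and 1250 CPM at day 4. The log2 changes were -0.86 ± 0.08 in WT and 0.58 ± 0.08 in bre1Δ. At day 1, FAS2 was 2.16-fold lower in set2Δ than in WT, the largest difference of that sign at that day, and in day 4 cells of bre1Δ it was 2.66-fold higher than in WT. Per length, FAS2 had the highest mean of the list in bre1Δ at day 4, with 221 ± 13.8 FPKM (SD, n = 3). FAS1, at 199 ± 6.27 FPKM, overlapped it in the libraries.
FAS2 is the only listed gene with CATGTGA, the core of the inositol-choline element of lipid synthesis genes, in the window of its promoter. The motif, searched on both strands, is in 1.98% of the 6020 promoters. It is shown in capitals, as its reverse complement, in the stretch from 250 to 101 bases before the start of FAS2, at XVI:108402-108551 on the plus strand of R64.
FAS2: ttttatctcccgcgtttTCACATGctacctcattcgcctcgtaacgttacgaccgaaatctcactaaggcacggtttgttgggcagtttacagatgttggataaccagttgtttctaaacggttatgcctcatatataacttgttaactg
The 11 other genes of fatty acid synthesis and its regulation did not all follow. In WT 3 were higher and 8 lower, and in bre1Δ 6 were higher and 4 lower. The elongases ELO1 and ELO3, which extend fatty acids, rose in bre1Δ with log2 changes of 1.37 ± 0.08 and 1.80 ± 0.07, whereas OLE1, the desaturase, fell (-1.19 ± 0.15).
URA2 (YJL130C, X:165723-172367, minus strand) rose in WT and in bre1Δ and did not pass the threshold in set2Δ. URA2 in WT read 217, 204 and 241 CPM at day 1 and 304, 305 and 294 CPM at day 4. Its set2Δ libraries gave 295, 272 and 293 CPM at day 1 and 289, 302 and 286 CPM at day 4, and its bre1Δ libraries 248, 298 and 337 CPM at day 1 and 879, 818 and 866 CPM at day 4. The rise in bre1Δ, 2.90-fold (adjusted p = 4.51e-13), was the largest rise between days in the list, and that in WT was 0.45 ± 0.08 on the log2 scale. Of 8 partner genes of pyrimidine synthesis, 6 were higher in bre1Δ at day 4, among them URA1 at 2.09 ± 0.06 and the carbamoyl phosphate synthetase gene CPA1 at 1.25 ± 0.07, and 2 were lower.
ACC1 (YNR016C, XIV:654673-661374, minus strand) gave 534, 487 and 554 CPM at day 1 and 292, 313 and 290 CPM at day 4 in WT. ACC1 values in set2Δ were 424, 416 and 449 CPM at day 1 and 395, 395 and 392 CPM at day 4, and in bre1Δ 503, 579 and 642 CPM at day 1 and 463, 487 and 466 CPM at day 4. ACC1 fell in WT (-0.81 ± 0.07) and was 1.58-fold higher in bre1Δ than in WT at day 4. GLT1 (YDL171C, IV:149203-155640, minus strand) read 334, 289 and 327 CPM at day 1 and 228, 229 and 221 CPM at day 4 in WT. With 309, 281 and 320 CPM at day 1 and 418, 416 and 403 CPM at day 4 in set2Δ and 263, 295 and 310 CPM at day 1 and 381, 346 and 393 CPM at day 4 in bre1Δ, GLT1 fell in WT and rose in the deletions. At day 4 it was 1.82-fold higher in set2Δ and 1.65-fold higher in bre1Δ than in WT.

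**Figure D5:**
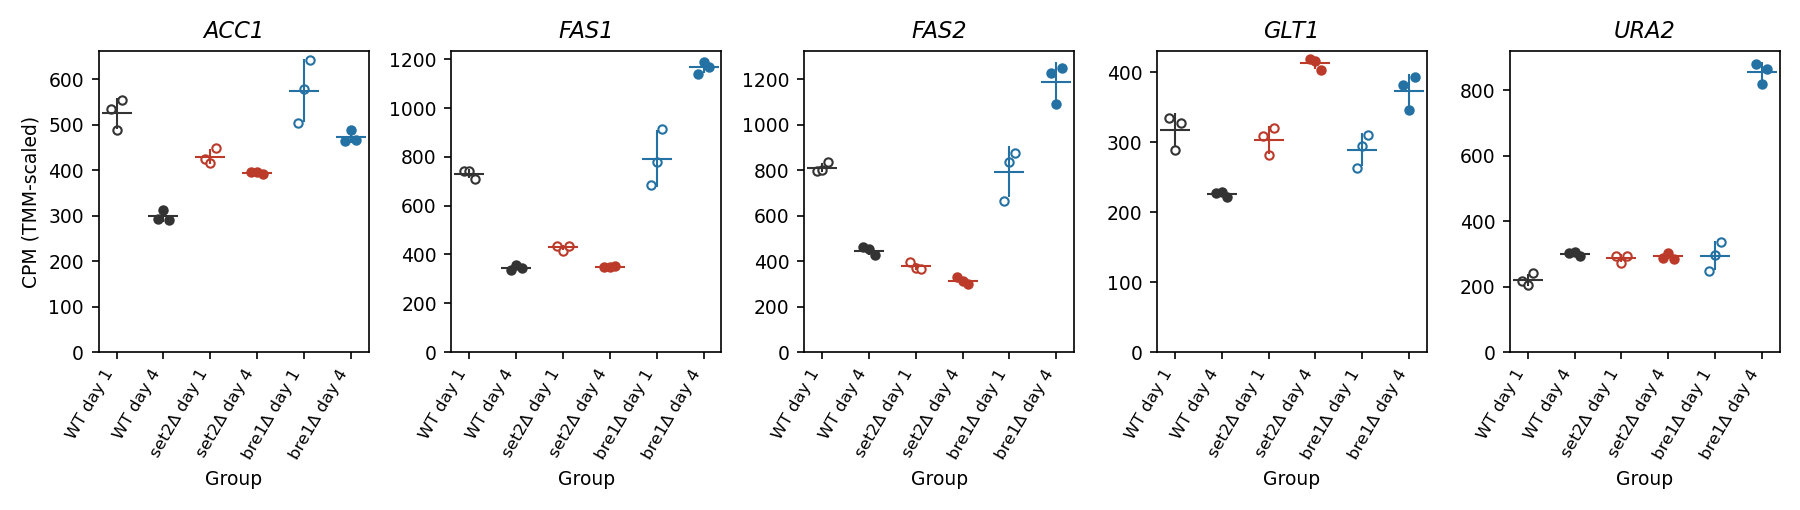
TMM-scaled CPM (vertical axes, each from 0) of the 5 long metabolic enzyme genes in the 6 groups (horizontal axis), 1 point per library, with the mean as a line and the SD as a bar (n = 3). FAS1 and FAS2 fall in WT and rise in bre1Δ from day 1 to day 4, and URA2 reaches its highest level in bre1Δ at day 4.

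Membrane traffic and lipid transfer genes were lower at day 4 in WT for 7 of 8, in bre1Δ for 8 of 8 and in set2Δ for 3 of 8. Once the length trend was removed, 2 were higher and 4 lower in bre1Δ. The group joins the bridge-like lipid transfer proteins Vps13, Csf1 and Fmp27, the coat scaffold Sec16 of ER exit sites, the tether Uso1, the Golgi exchange factor Sec7, Dop1 of endosome to Golgi transport, and Bph1.
VPS13 (YLL040C, XII:54211-63645, minus strand) read 884, 894 and 911 CPM at day 1 and 505, 551 and 539 CPM at day 4 in WT. In set2Δ, VPS13 gave 1020, 957 and 1030 CPM at day 1 and 498, 481 and 462 CPM at day 4, and in bre1Δ 609, 658 and 630 CPM at day 1 and 291, 287 and 292 CPM at day 4. It fell in each strain without overlap, by log2 changes of -0.75 ± 0.05 in WT, -1.06 ± 0.05 in set2Δ and -1.12 ± 0.05 in bre1Δ. CSF1, also past 8 kb, fell in all 3 strains (-0.90 ± 0.05, -0.90 ± 0.05 and -1.11 ± 0.05 in the same order). FMP27, of 7887 bp, fell in WT (-0.98 ± 0.06) and bre1Δ (-1.15 ± 0.06) and did not pass in set2Δ.
SEC16 (YPL085W, XVI:387067-393654, plus strand) had the largest difference of the list between set2Δ and WT at day 1. SEC16 gave 265, 242 and 271 CPM at day 1 and 248, 237 and 241 CPM at day 4 in WT, and the days overlapped. The set2Δ libraries of SEC16 gave 946, 890 and 860 CPM at day 1 and 668, 655 and 636 CPM at day 4, and the bre1Δ libraries 357, 367 and 371 CPM at day 1 and 276, 265 and 268 CPM at day 4. The difference of set2Δ from WT was 3.46-fold at day 1 (adjusted p = 6.53e-17) and 2.70-fold at day 4. DOP1, BPH1 and USO1 fell in WT, at -0.84 ± 0.05, -0.87 ± 0.05 and -0.71 ± 0.05. Each of them was higher in set2Δ than in WT at day 4, at 1.21 ± 0.05, 1.51 ± 0.05 and 1.18 ± 0.05 respectively. SEC7 fell in WT (-0.67 ± 0.05) and in bre1Δ (-0.51 ± 0.05, or -0.01 and not past the threshold with the length trend removed). Among 14 partners of the secretory coats and the Golgi, 10 were higher and 0 lower in set2Δ from day 1 to day 4, or 4 and 3 with upper-quartile scaling, and 5 were higher and 8 lower in WT.

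Of the cytoskeleton and cell division genes in WT, 2 of 5 were higher at day 4, 2 lower and 1 did not pass. In set2Δ 4 of 5 were higher, or 2 with library totals or upper-quartile scaling, and in bre1Δ 4 of 5 were lower. Num1 anchors dynein and mitochondria at the cell cortex, Dyn1 is the heavy chain of dynein, Bni1 is the formin that starts actin cables, Myo1 is the myosin of the division ring, and Tao3 belongs to the pathway that turns on genes of daughter cells.
NUM1 (YDR150W, IV:755628-763874, plus strand) fell in bre1Δ and not in the other strains. NUM1 in WT read 1440, 1360 and 1390 CPM at day 1 and 1400, 1530 and 1440 CPM at day 4. NUM1 in set2Δ came to 1250, 1170 and 1230 CPM at day 1 and 1350, 1320 and 1330 CPM at day 4, and in bre1Δ to 1540, 1470 and 1400 CPM at day 1 and 488, 492 and 484 CPM at day 4. The fall in bre1Δ was 3.01-fold (adjusted p = 1.14e-15), and the day 4 libraries of bre1Δ lay 2.98-fold below those of WT. Per length NUM1 had the highest mean of the list in WT at day 4, with 154 ± 6.96 FPKM (SD, n = 3). IRA2, at 151 ± 7.97 FPKM, overlapped it in the libraries. The repeats of NUM1 make the count of this gene less certain than the others.
BNI1 (YNL271C, XIV:129522-135383, minus strand) gave 267, 261 and 268 CPM at day 1 and 379, 412 and 391 CPM at day 4 in WT, the largest rise of the list there. In set2Δ, BNI1 read 249, 252 and 251 CPM at day 1 and 414, 440 and 436 CPM at day 4, and it fell in bre1Δ, with 367, 318 and 308 CPM at day 1 and 175, 185 and 181 CPM at day 4. The log2 changes were 0.57 ± 0.06, 0.78 ± 0.06 and -0.88 ± 0.06 in WT, set2Δ and bre1Δ. MYO1 (YHR023W, VIII:151666-157452, plus strand) read 66.6, 66.8 and 68.0 CPM at day 1 and 74.9, 72.3 and 76.7 CPM at day 4 in WT. MYO1 read 127, 128 and 135 CPM at day 1 and 154, 165 and 180 CPM at day 4 in set2Δ and 112, 119 and 121 CPM at day 1 and 219, 229 and 230 CPM at day 4 in bre1Δ. MYO1 was higher than in WT in both deletions at both days, with no overlap of libraries. The differences from WT were 1.93-fold and 2.23-fold in set2Δ at day 1 and day 4, and 1.75-fold and 3.03-fold in bre1Δ.
DYN1 (YKR054C, XI:535647-547925, minus strand), the second longest gene, read 419, 414 and 439 CPM at day 1 and 258, 297 and 284 CPM at day 4 in WT. In set2Δ, DYN1 gave 695, 654 and 738 CPM at day 1 and 323, 323 and 305 CPM at day 4, and in bre1Δ 442, 466 and 444 CPM at day 1 and 175, 170 and 176 CPM at day 4. DYN1 fell in all 3 strains, at -0.60 ± 0.06 in WT, -1.13 ± 0.06 in set2Δ and -1.38 ± 0.06 in bre1Δ, though with the length trend removed the WT change was 0.07 and did not pass. Of the 10 other dynein and dynactin genes, 6 were lower in WT, 5 in set2Δ and 6 in bre1Δ, and 0, 1 and 1 were higher. TAO3 fell in bre1Δ (-0.97 ± 0.05).

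The largest difference between strains in the list belonged to a ubiquitin ligase. APC1 (YNL172W, XIV:310636-315882, plus strand) encodes the largest subunit of the anaphase-promoting complex, which marks cyclins and securin for destruction. APC1 in WT read 61.1, 63.7 and 61.6 CPM at day 1 and 28.6, 28.0 and 32.3 CPM at day 4. The set2Δ libraries held 207, 201 and 205 CPM at day 1 and 294, 275 and 299 CPM at day 4 of APC1, and bre1Δ held 86.9, 93.5 and 82.8 CPM at day 1 and 58.9, 58.9 and 57.8 CPM at day 4. WT and bre1Δ fell from day 1 to day 4 and set2Δ rose, with no overlap of the days in any strain. At day 1, set2Δ was 3.28-fold above WT, and at day 4 9.76-fold above it (adjusted p = 6.59e-20). In bre1Δ, APC1 was 1.97-fold above WT at day 4. The 14 other genes of the complex and its activators did not share this, with 6 higher and 7 lower in set2Δ against WT at day 4.
UBR1 (YGR184C, VII:859901-865753, minus strand), the ligase that reads the first residue of its targets, rose in 2 strains. UBR1 gave 363, 328 and 349 CPM at day 1 and 397, 428 and 438 CPM at day 4 in WT. Its set2Δ values were 261, 251 and 268 CPM at day 1 and 429, 426 and 436 CPM at day 4, and its bre1Δ values 343, 331 and 315 CPM at day 1 and 299, 306 and 311 CPM at day 4. The rise was 0.73 ± 0.05 in set2Δ, and UBR1 did not pass in bre1Δ. TOM1, a HECT-type ligase past 8 kb, fell in WT (-0.61 ± 0.06, or -0.02 and not past the threshold with the length trend removed) and by 2.42-fold in bre1Δ.

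The 3 long nuclear pore genes fell in WT, 3 of 3, and rose in set2Δ, 3 of 3 or, with upper-quartile scaling, 2 of 3. NUP192 (YJL039C, X:368748-373799, minus strand) is a scaffold of the inner ring, and Mlp1 and Mlp2 form filaments of the nuclear basket. WT libraries read NUP192 at 116, 112 and 124 CPM at day 1 and 49.3, 54.0 and 56.4 CPM at day 4. NUP192 in set2Δ read 90.6, 95.1 and 97.7 CPM at day 1 and 105, 123 and 120 CPM at day 4, and in bre1Δ 191, 196 and 207 CPM at day 1 and 182, 189 and 183 CPM at day 4. It fell 2.20-fold in WT, and at day 4 it was 2.18-fold above WT in set2Δ and 3.47-fold above it in bre1Δ (adjusted p = 1.16e-16).
MLP2 (YIL149C, IX:63028-68067, minus strand), the shortest of the 42, read 152, 156 and 157 CPM at day 1 and 86.7, 107 and 97.1 CPM at day 4 in WT. MLP2 gave 118, 109 and 121 CPM at day 1 and 191, 208 and 213 CPM at day 4 in set2Δ and 261, 256 and 277 CPM at day 1 and 161, 176 and 163 CPM at day 4 in bre1Δ. The log2 changes were -0.68 ± 0.07 in WT, 0.82 ± 0.07 in set2Δ, the largest rise of the list there, and -0.67 ± 0.06 in bre1Δ. MLP1 fell in WT (-0.52 ± 0.06) and in bre1Δ (-0.85 ± 0.06). Of 15 other pore genes, 11 were lower and 1 higher in WT at day 4. In set2Δ 5 were higher and 6 lower, and in bre1Δ 3 were higher and 5 lower.

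The 196 partner genes are mostly shorter than the listed ones. In WT 60 were higher and 94 lower from day 1 to day 4, with a median log2 change of -0.14. Over all genes 37.2% were higher and 40.5% lower. In set2Δ against WT at day 4, 94 were higher and 73 lower (34.7% and 44% of all genes), with a median of 0.11. In bre1Δ against WT at day 4, 103 were higher and 64 lower (44.8% and 41.6% of all genes), with a median of 0.19. The medians of the long genes were -0.72, 0.93 and 0.28 in these comparisons, and the difference between the lists was not tested.
The 3 genes outside the list whose pattern over the 6 group means was most like the mean pattern of the 42 were MSH6, a mismatch repair gene (Pearson r 0.997), RTT101, a cullin (0.993), and IML1, a regulator of TOR complex 1 (0.977). MSH6 had mean CPM of 72.3 and 35.5 in WT, 99 and 95 in set2Δ, and 97 and 52.4 in bre1Δ, at day 1 and day 4 in each strain. RTT101 had 81.7 and 54.2, 92.7 and 90.5, and 90.3 and 67.7 in the same order. IML1 had 159 and 85.3, then 195 and 226, then 181 and 111. They span 3729, 2529 and 4755 bp, and the 6 means share libraries and scaling.
Of the other motifs searched on both strands in the same window of the promoters, each was found in a few of the listed genes. The Gcn4 site TGACTCA was in 3 of 42 (VPS13, CSF1 and DOP1) and in 2.72% of all. The stress element CCCCT was in 10 of 42 and 21.6% of all. The site GATAAG of nitrogen regulators was in 7 of 42 and 14.6% of all. These counts describe letters in a window.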

How the data were processed

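RNA was measured in 18 libraries, 3 in each of 6 groups assigned from the labels. Raw counts per gene were deposited by the authors, together with an FPKM table that they made (counts scaled to gene length and library size). Per the submitters' processing notes the tools were FastQC 0.11.8, cutadapt 2.6, STAR 2.7.0b, HTSeq 2.0.2, R 4.2.0 and DESeq2 1.36.0, with genome build sacCer3; their settings and the normalization of the FPKM are not given in the sources used here.

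Counts were fitted with edgeR 4.0.16 (R 4.3.3): genes passing filterByExpr (6320 of 6837), TMM factors, 1 quasi-likelihood model of 6 groups, contrasts for 7 pairwise comparisons and 2 interactions, Benjamini-Hochberg adjustment over all genes, threshold 0.05. Gene length came from counts and FPKM, and member spans from RefSeq R64. The pipeline was tested on simulated counts. Alternatives used limma 3.58.1, DESeq2 1.42.0, other scalings, filters and lengths, and left out each library. Listed genes among the 3 largest rises or falls of a pairwise comparison, and the metabolic enzymes, were given in full; other members by role. The members, roles and partner lists were chosen with earlier results of these data known. Depth limits precision to counting error plus the spread of 3 libraries. Same-numbered libraries did not deviate together (median correlations from -0.03 to -0.004), so replicate numbers were not used to pair.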

Additional observations from a re-analysis of the deposited data

Results flagged for a closer look

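The change from day 1 to day 4 differed between a deletion and WT, by a test of the interaction, for 37 of the 42 genes with set2Δ and for 37 with bre1Δ. Over all genes 72.7% and 76.9% passed these tests. The genes whose difference reached 2-fold are given with their log2 values. With set2Δ the day effect was more positive than in WT for MEC1 (1.91), RIF1 (1.60), APC1 (1.57), MLP2 (1.496), NUP192 (1.43), DOP1 (1.34), POL2 (1.29), BPH1 (1.27), CDC39 (1.26), FAB1 (1.20) and GCN1 (1.06). With bre1Δ it was more positive for FAS1 (1.63), FAS2 (1.44), URA2 (1.09) and NUP192 (1.03), and more negative for NUM1 (-1.65), BNI1 (-1.45) and IRA2 (-1.05).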

How the results depend on the processing

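The counts of WT from day 1 to day 4 held under every scaling, filter and tool tried and when any library was left out; removing the length trend gave 9 higher. That removal moved the listed genes by a median of 0.45 in WT, -0.03 in set2Δ and 0.57 in bre1Δ, where 14 were higher. The rise in set2Δ gave 13 with upper-quartile scaling, and 14 and 14 with limma (pseudocounts 1 and 0.1). The genes lower in set2Δ than in WT at day 1 were 5 with library totals and with both limma fits. At day 4 they were 2 with library totals, upper-quartile scaling, only the libraries compared, limma or TMM from genes under 2 kb (chosen after seeing the data), 17 with the length trend removed, and 2 to 4 with 1 library left out; 2 without WT replicate 2 or set2Δ replicate 3. The genes lower in bre1Δ were 4 with library totals and 3 with limma at day 1, and 10 with either at day 4. The interaction of set2Δ gave 14 lower with the length trend removed. Summed CPM of the list over raw totals were 14630, 10450, 23530, 17890, 18700 and 12770 for day 1 and day 4 of WT, set2Δ and bre1Δ. The 4 to 5 kb median of the bre1Δ interaction was 0.19 with reference spans.

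Of 136 single-gene values named here, 4 reversed, all with the length trend removed, and the cause was not tested. They were MDN1 in WT (0.14) and bre1Δ (0.15), DYN1 in WT (0.073) and TRA1 in set2Δ against WT at day 4 (-0.47). These are the longest genes of the list. They lie at the long end of the trend, which was fitted with the listed genes included. Over all 378 values of the 42 genes, named or not, 40 reversed and 24 no longer passed with that trend removed. With library totals only, and with each of the limma fits, 26 of the 378 reversed. No single-gene call named here changed when a library was left out. The replicate number as a block, which the labels do not tie to a shared culture, left 34 of 42 genes higher in set2Δ than in WT at day 4 (35 without it), and 7 of 18 libraries correlated best with their own number. The lowest count of a listed gene in any library was 575 (APC1).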
